A study of Mus musculus with 32 samples.

Results

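The genotype by diet interaction asks whether the hypothalamus answered a high-fat diet differently when the receptor gene Gpr101 was missing. For each gene it is the difference between high-fat and control diet in knockout mice minus the same difference in wild-type mice, on the log2 scale. A value of 0 means equal diet responses, and a value above 0 means a response that was more positive, or less negative, in the knockout. All 32 of the 32 hypothalamus libraries of the series entered, chosen by their group label and by no measured value. The groups were hemizygous Gpr101 knockout males, with 8 mice fed control diet (KO_CD) and 9 fed high-fat diet (KO_HFD), and their wild-type littermates, with 7 mice fed control diet (WT_CD) and 8 fed high-fat diet (WT_HFD), all of the strain C57BL/6NTac. All mice ate standard chow until 7 weeks of age, when randomly selected males were moved to a diet with 60% of its energy from fat. They were killed at 149 or 150 days, when the hypothalamus was taken. The labels name no driver, cell type or time for the deletion.

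GPR101 is an X-linked orphan receptor that couples to the stimulatory G protein Gs and raises cyclic AMP, and it is enriched in hypothalamic neurons. The hypothalamus reads leptin, insulin and nutrients and sets feeding and energy use through neuron groups that make peptides such as neuropeptide Y, agouti-related peptide, pro-opiomelanocortin, CART and orexin. Prolonged feeding with fat is known to bring glial activation, leptin signalling through STAT3 and its inhibitor SOCS3, and a shift in the handling of lipids and ketone bodies in this region. The interaction asks whether any of these responses depended on Gpr101.

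Each library held 25.3 to 34.2 M (megareads) on genes, with a median of 27.7 M, and 1 read equalled 0.0361 CPM, the count scaled to a library of 1 M. Gpr101 stood at 101 ± 3.72 CPM in WT_CD (SD, n = 7) and 102 ± 3.95 CPM in WT_HFD (SD, n = 8), while KO_CD had 0 reads in a total of 225.6 M (an upper limit of 0.0133 CPM) and KO_HFD had 1 read. The hypothalamic peptide genes Agrp, Pomc, Hcrt, Pmch, Avp and Oxt were detected in every library, with at least 61 reads each. Age followed diet in both genotypes: 5 of 8 KO_CD and 6 of 7 WT_CD mice were 149 days old, against 1 of 9 KO_HFD and 1 of 8 WT_HFD mice. The libraries also differed in meningeal content. The mean log2 level of 15 genes of meninges and vascular fibroblasts, such as Ptgds, Dcn and Col1a1, exceeded 9 in 9 libraries (1 KO_CD, 3 KO_HFD, 1 WT_CD and 4 WT_HFD) and lay between 6.97 and 8.51 in the others. Values without those 9 libraries are given beside the results where they changed a call or moved an interaction most. In bulk tissue, fewer cells of a type and less RNA per cell cannot be told apart.

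No gene passed the test for a diet response that differed between the genotypes. Of 19928 genes tested with limma, 0 passed for the interaction (0%), and the smallest Benjamini-Hochberg adjusted p was 0.999. At an unadjusted p under 0.05 there were 677 genes (3.4%). With limma-voom on the recovered reads the counts were 0 and 679, and with sample quality weights 0 and 684. The count was also 0 in each of the 32 fits that left out 1 library, where the smallest adjusted p was 0.676 (Tmem204, without WT_CD replicate 2). It was 0 as well without the 9 libraries of high meningeal level, where 1000 genes had an unadjusted p under 0.05 and the smallest adjusted p was 0.0836 (Lrrn4cl, interaction 0.94, named after its value was seen).

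The 95% intervals show the range of differences that the data of a single gene leave possible. The interval reached a median of 0.17 on the log2 scale, or 1.13-fold, to either side of the estimate over all genes tested. For 53.1% of the genes the whole interval lay within a 1.2-fold difference between the diet responses in either direction, and for 89.8% it lay within 2-fold. These are intervals of single genes without adjustment for the number of genes. A call required the adjusted p to pass, so that larger differences than these could also go uncalled. The 7 to 9 mice per group therefore left differences of about 1.2-fold within the intervals of many genes, and larger ones in genes with few reads.

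How far the responses agreed was read from the responses of each genotype side by side. They share no mouse, although they share the fit, the scaling and the way age followed diet. Across all genes the wild-type and knockout responses had the same sign in 11721 of 19928 (58.8%), with Pearson's r = 0.23, Spearman's rho = 0.21 and a slope of 0.20 of the knockout response on the wild-type response. These are descriptions across genes measured in the same libraries, and genes are not independent replicates. Agreement differed between levels of expression, as r was 0.18 for 6561 genes with a mean normalized count under 100, 0.49 for 7273 genes between 100 and 1000, 0.50 for 5765 genes between 1000 and 10000, and 0.70 for 329 genes above 10000. Spearman's rho in the same order was 0.14, 0.30, 0.35 and 0.22, so that only r rose throughout. A normalized count is the number of reads divided by the size factor of its library. The value of r also differed in smaller sets of mice and with age in the fit. It was 0.066 without the 9 libraries of high meningeal level, and 0.061 among mice of 150 days only, a set with a single WT_CD mouse. It was 0.46 with age as a covariate, a fit that subtracts 1 common age term from both responses. The smaller sets hold fewer mice per group. The parts of meningeal content, age and the number of mice in r were not tested.

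**Figure D1:**
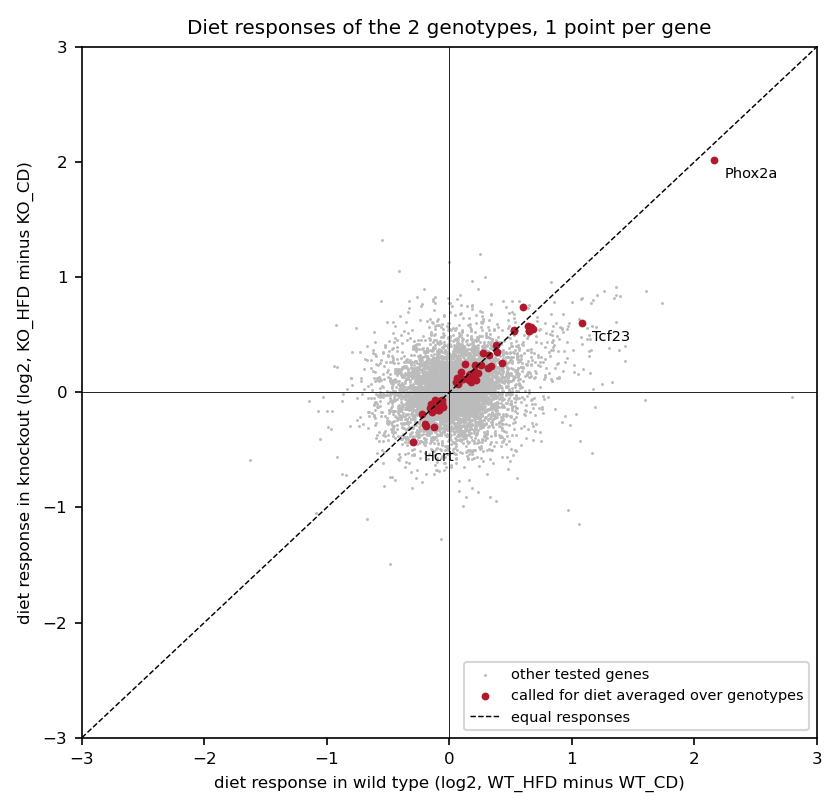
Diet response of each of 19928 tested genes in wild type (horizontal axis, log2, WT_HFD minus WT_CD) and in the knockout (vertical axis, log2, KO_HFD minus KO_CD). Red points are the 67 genes called for diet averaged over genotypes, all on the same side of 0 in both genotypes, and the dashed line marks equal responses. Over all tested genes, red and grey together, r was 0.23.

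The genes with the clearest diet response moved alike in both genotypes. Averaged over genotypes, 67 of 19928 genes (0.336%) passed for diet, 37 higher and 30 lower on high-fat diet. Of these 67 genes, 0 passed for the interaction and 1, Acsbg1, had an unadjusted p under 0.05 for it. All 67 had the same sign in wild type and knockout, a count that is partly fixed because the genes were chosen on the mean of both responses. The median size of the response was 0.16 in wild type and 0.15 in the knockout, and the median size of the interaction was 0.040. The response was larger in the knockout for 33 genes and larger in wild type for 34. The interval of the interaction lay within 1.2-fold for 47 of the 67 genes, within 1.5-fold for 60 and within 2-fold for 65. Their number differed with age in the fit and in smaller sets of mice. There were 12 such genes with age as a covariate, 0 among mice of 150 days only, and 15 without the 9 high meningeal libraries, 13 of them among the 67. The 67 genes kept the same sign in both genotypes with age as a covariate and without the 9 libraries, and 62 did so at 150 days only. Slc16a1, Serpina3n, Stat3, Socs3, Phox2a, Scd1 and Kcnj10 were called both with age as a covariate and without the 9 libraries. Without the 9 libraries the interaction changed sign in 14 of the 67 genes, was above 0 in 37 instead of 25, and had an unadjusted p under 0.05 in 4 (Acaca, Fabp7, Serpina3n and Socs3).

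Choosing genes in 1 genotype and reading them in the other avoids part of that selection. In wild type 5 genes passed for diet (0.0251%), among them Phox2a, Slc16a1, Serpina3n and Stat3. All 5 had the same sign in the knockout, each with an unadjusted p under 0.05 there. In the knockout 7 genes passed (0.0351%): Slc16a1, Phox2a, Serpina3n, Prex1, Scd1, Npas2 and Acsbg1. All 7 had the same sign in wild type, and 5 of them had an unadjusted p under 0.05 there. Of the 100 genes with the lowest diet p in wild type, 87 had the same sign in the knockout, and of the 100 with the lowest p in the knockout, 91 had the same sign in wild type. Beyond the leading genes the share was smaller, at 82.6% and 77.2% for the lowest 500. The median response of the 100 wild-type genes was 0.23 in size in wild type and 0.10 in that direction in the knockout. Genes ranked in 1 genotype are ranked partly on that genotype's own error, so that a smaller value in the other does not by itself show a weaker response.

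**Figure D2:**
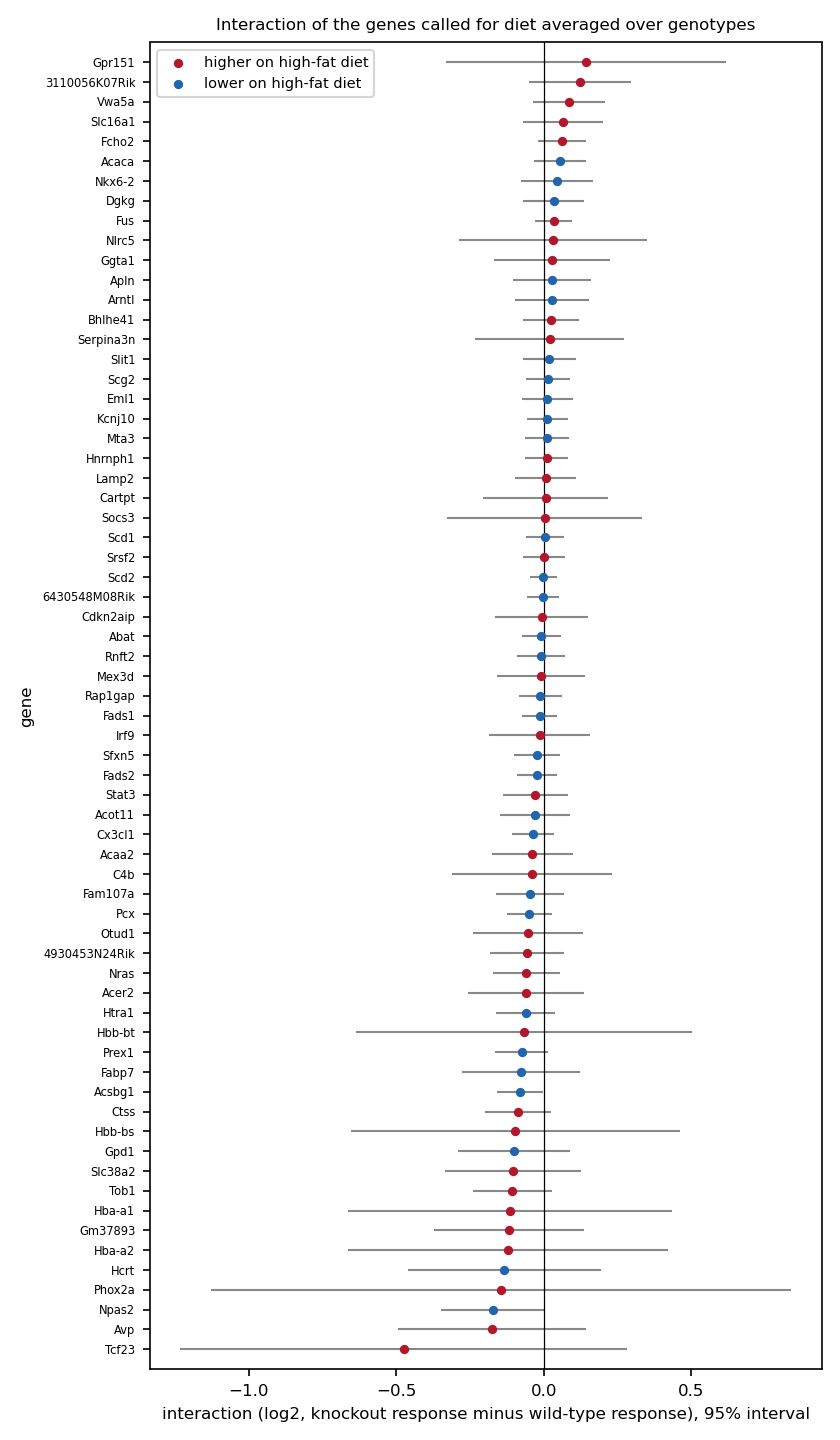
Interaction (horizontal axis, log2, knockout response minus wild-type response) with its 95% interval for 66 of the 67 genes called for diet averaged over genotypes, coloured by the direction of the diet effect. The interval includes 0 for every gene drawn except Acsbg1.

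The monocarboxylate transporter gene Slc16a1 rose with fat feeding at a similar size with and without GPR101. Slc16a1 (chr3:104638668-104658462, plus strand, GRCm38) encodes the transporter MCT1, which carries lactate and ketone bodies. Its normalized count was 1133, 1340 and 1406 (lowest, median, highest) in WT_CD against 1433, 1565 and 1667 in WT_HFD. In the knockout it was 1169, 1260 and 1494 in KO_CD against 1447, 1652 and 1784 in KO_HFD. The wild-type groups did not overlap and the knockout groups overlapped slightly. The response was 0.27 (SE 0.048, adjusted p = 0.0137) in wild type and 0.34 (SE 0.045, adjusted p = 0.000118) in the knockout, and the interaction was 0.06 with a 95% interval of -0.07 to 0.20.

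With all 32 libraries, the diet-called genes of glial activation and STAT3 signalling also had similar responses in both genotypes. Without the 9 meningeal libraries the responses of Serpina3n and Socs3 lay further apart, as given below. Of the 16 tested genes of gliosis and inflammation, 3 rose for diet averaged over genotypes (Serpina3n, Socs3 and C4b) and 0 fell, where 0.336% of all genes passed. Serpina3n, a serine protease inhibitor made by reactive astrocytes, had counts of 995, 1292 and 1608 in WT_CD and 1642, 1908 and 2227 in WT_HFD. Knockout counts were 1177, 1348 and 1545 in KO_CD and 1674, 1955 and 2285 in KO_HFD. The diet groups did not overlap in either genotype. The response was 0.53 (SE 0.090) in wild type and 0.55 (SE 0.084) in the knockout, and the interaction was 0.020 (-0.23 to 0.27). Stat3, which carries the signal of the leptin receptor and of interleukin 6 to the nucleus, had a response of 0.21 (SE 0.040) in wild type and 0.18 (SE 0.037) in the knockout, with an interaction of -0.03 (-0.14 to 0.08). Its groups overlapped in both genotypes. Without the 9 meningeal libraries its responses were 0.14 and 0.21 and its interaction was 0.08 (unadjusted p = 0.161).

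Socs3, the feedback inhibitor that STAT3 induces, had counts of 89.9, 123 and 148 in WT_CD and 132, 173 and 283 in WT_HFD. Without the receptor they were 92.4, 128 and 143 in KO_CD and 151, 174 and 211 in KO_HFD, without overlap. The response was 0.53 in both genotypes (SE 0.12 in wild type and 0.11 in the knockout), and the interaction was 0.0028 (-0.33 to 0.33). Without the 9 libraries the wild-type response of Socs3 was 0.18 and the knockout response 0.56, with an interaction of 0.38 (unadjusted p = 0.0193, adjusted p = 0.970). For Serpina3n the values were 0.34 and 0.63, with an interaction of 0.30 (unadjusted p = 0.0173, adjusted p = 0.970). The part of the meningeal content in these interactions was not tested. C4b, a complement component, had responses of 0.39 and 0.35 in wild type and knockout, and an interaction of -0.04 (-0.31 to 0.23), which was 0.22 without the 9 libraries (unadjusted p = 0.129). Its averaged diet call was lost with age as a covariate (adjusted p = 0.0894) and without the 9 libraries (adjusted p = 0.1005).

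The Socs3 promoter is shown because a STAT motif lies in it and Socs3 is a known target of STAT3. From RefSeq (GRCm38.p6), the 250 bases before the Socs3 start, on the minus strand at chr11:117969367-117969616, are given 5′ to 3′, with the match to TTCNNNGAA in capitals, 154 bases before the start.
Socs3: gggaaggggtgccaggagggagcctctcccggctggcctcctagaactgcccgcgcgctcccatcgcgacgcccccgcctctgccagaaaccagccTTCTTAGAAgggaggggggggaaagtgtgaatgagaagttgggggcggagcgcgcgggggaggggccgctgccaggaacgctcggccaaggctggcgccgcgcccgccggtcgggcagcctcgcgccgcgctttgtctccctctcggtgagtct
The motif was found on either strand in 2 of 28 matched genes that were higher on high-fat diet (Socs3 and Hnrnph1), or 7.14%. Over all 27025 genes with a promoter of that length it was found in 8.13%, where a gene counts if any of its promoters matches. A match is a string of letters and no evidence of binding.

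The interferon genes Irf9 and Nlrc5 rose on high-fat diet by similar amounts in both genotypes. Irf9, the DNA-binding subunit of the complex that type I interferon activates, had counts of 415, 471 and 560 in WT_CD and 515, 567.7 and 670 in WT_HFD. The knockout values were 421, 483 and 580 in KO_CD and 506, 580 and 629 in KO_HFD, so that the diet groups overlapped in both genotypes. The response was 0.26 (SE 0.062) in wild type and 0.24 (SE 0.058) in the knockout, and the interaction was -0.014 (-0.19 to 0.16). The averaged diet call of Irf9 was lost with age as a covariate (adjusted p = 0.275). Nlrc5, a transactivator of MHC class I genes, had responses of 0.38 and 0.41 and an interaction of 0.03 (-0.29 to 0.35). Its averaged diet call was lost with that covariate too (adjusted p = 0.283). Of the 20 genes of the interferon and MHC class I list, 1 passed for diet averaged over genotypes, 16 had the same sign in both genotypes, and the median response was 0.17 in wild type and 0.14 in the knockout.

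Of the 14 genes of fatty acid synthesis and desaturation, 5 passed as lower for diet averaged over genotypes (Scd1, Scd2, Fads1, Fads2 and Acaca) and 0 as higher, against 0.336% called in either direction over all genes. In 12 of the 14 the responses had the same sign in both genotypes. Scd1, the stearoyl-CoA desaturase that makes oleate, had counts of 9134, 9601 and 9722 in WT_CD and 8399, 8795 and 9077 in WT_HFD, without overlap. In KO_CD they were 9204, 9565 and 10283 and in KO_HFD 8440, 8940 and 9281, with overlap. The response was -0.11 in wild type (SE 0.023) and in the knockout (SE 0.022), and the interaction was 0.0026 (-0.06 to 0.07). Scd2, the main brain desaturase, had responses of -0.06 in both genotypes and an interaction of -0.0013 (-0.05 to 0.045). The desaturases Fads1 and Fads2 had interactions of -0.014 and -0.02. Acaca, the carboxylase that makes malonyl-CoA, had an interaction of 0.06 (-0.03 to 0.14). Of these 5 genes, Scd1 and Scd2 were called with age as a covariate and Scd1 without the 9 meningeal libraries.

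The gene with the largest departure for its error among the 67 was another lipid gene. Acsbg1, an acyl-CoA synthetase of brain, had counts of 4321, 4402 and 4679 in WT_CD and 4185, 4280 and 4602 in WT_HFD. Knockout counts were 4122, 4473 and 4631 in KO_CD and 3646, 4107 and 4267 in KO_HFD. The groups overlapped in both genotypes. The response was -0.05 (SE 0.028) in wild type and -0.13 (SE 0.026, adjusted p = 0.0348) in the knockout. The interaction of -0.08 (-0.16 to -0.0041) did not pass over all genes (adjusted p = 0.999). The averaged diet call of Acsbg1 was lost with age as a covariate (adjusted p = 0.239) and without the 9 meningeal libraries (adjusted p = 0.136).

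Of the 17 clock genes, 1 passed as higher (Bhlhe41) and 2 as lower (Npas2 and Arntl) for diet averaged over genotypes, and only Npas2 passed within a genotype, the knockout. Npas2, a partner of BMAL1 in the clock, had counts of 243, 266 and 295 in WT_CD and 220, 245 and 271 in WT_HFD. Without the receptor they were 251, 294 and 320 in KO_CD and 210, 237 and 277 in KO_HFD. Its response was -0.12 (SE 0.064) in wild type and -0.30 (SE 0.060, adjusted p = 0.0348) in the knockout, and the interaction was -0.17 (-0.35 to 0.0045). Arntl, which encodes BMAL1, had responses of -0.16 and -0.13, and Bhlhe41, a repressor of the clock, of 0.09 and 0.11. Their interactions were 0.03 (-0.10 to 0.15) and 0.02 (-0.07 to 0.12). The averaged diet call of Npas2 was lost with age as a covariate (adjusted p = 0.155) and without the 9 meningeal libraries (adjusted p = 0.234). In the same fits the calls of Arntl (adjusted p = 0.060 and 0.197) and Bhlhe41 (0.109 and 0.274) were lost as well. The hour of killing was not known.

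The peptide genes Cartpt, Hcrt and Avp, of feeding and water balance, had diet responses of the same sign in both genotypes. Cartpt, the precursor of the satiety peptide CART, had counts of 3106, 4062 and 4482 in WT_CD and 3946, 4722 and 5638 in WT_HFD. The knockout values were 3475, 3692 and 4124 in KO_CD and 4034, 4774 and 5293 in KO_HFD. The response was 0.32 (SE 0.075) in wild type and 0.33 (SE 0.071) in the knockout, with an interaction of 0.0056 (-0.21 to 0.22). Hcrt, the precursor of the wake and appetite peptide orexin, had counts of 3777, 4847 and 5457 in WT_CD and 3036, 3716 and 5231 in WT_HFD. In KO_CD they were 3956, 5266 and 5886 and in KO_HFD 2782, 3929 and 4807. The response was -0.30 (SE 0.12) in wild type and -0.43 (SE 0.11) in the knockout, with an interaction of -0.13 (-0.46 to 0.19). Avp, the precursor of vasopressin, had responses of 0.43 and 0.25 and an interaction of -0.17 (-0.49 to 0.14). The groups of all of these peptide genes overlapped between diets in both genotypes, and each passed for diet averaged over genotypes (adjusted p = 0.0014 for Cartpt, 0.037 for Hcrt and 0.0479 for Avp). These calls did not hold throughout. With age as a covariate the adjusted p was 0.126 for Cartpt, 0.206 for Hcrt and 0.242 for Avp. Without the 9 meningeal libraries it was 0.0292 for Cartpt, 0.421 for Hcrt and 0.329 for Avp, and the interactions were 0.16, -0.30 and -0.03. For Avp it was 0.0568 with limma-voom.

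The other feeding genes missed the threshold for diet and for the interaction. Npy, the orexigenic peptide gene of the arcuate nucleus, had responses of -0.45 in wild type and -0.20 in the knockout and an interaction of 0.24 (-0.16 to 0.65). Its partner Agrp had -0.41 and -0.19, with an interaction of 0.22 (-0.21 to 0.65). Pomc, whose product yields alpha-MSH, had 0.24 and -0.03, with an interaction of -0.27 (-0.71 to 0.17). The intervals of these 3 genes include 0 and also differences above 1.5-fold. For Insr, the insulin receptor, the interval was narrow, with an interaction of 0.02 (-0.06 to 0.09). Among the other genes of the hypothalamic panel, the interaction was -0.11 (-0.62 to 0.41) for the leptin receptor Lepr, -0.0053 (-0.32 to 0.31) for the melanocortin receptor Mc4r, and -0.10 (-0.41 to 0.21) for the growth hormone releasing hormone gene Ghrh. It was -0.06 (-0.23 to 0.10) for Sst, 0.13 (-0.22 to 0.48) for Pmch, -0.14 (-0.69 to 0.41) for Oxt, and -0.15 (-0.43 to 0.14) for the astrocyte filament gene Gfap. Without the 9 meningeal libraries the sign changed for Lepr (0.105), Pmch (-0.18) and Gfap (0.11), with unadjusted p of 0.459, 0.371 and 0.468. Brs3, Crh, Trh, Th and Drd2 had interactions between -0.16 and 0.09, and their intervals included 0.

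**Figure D3:**
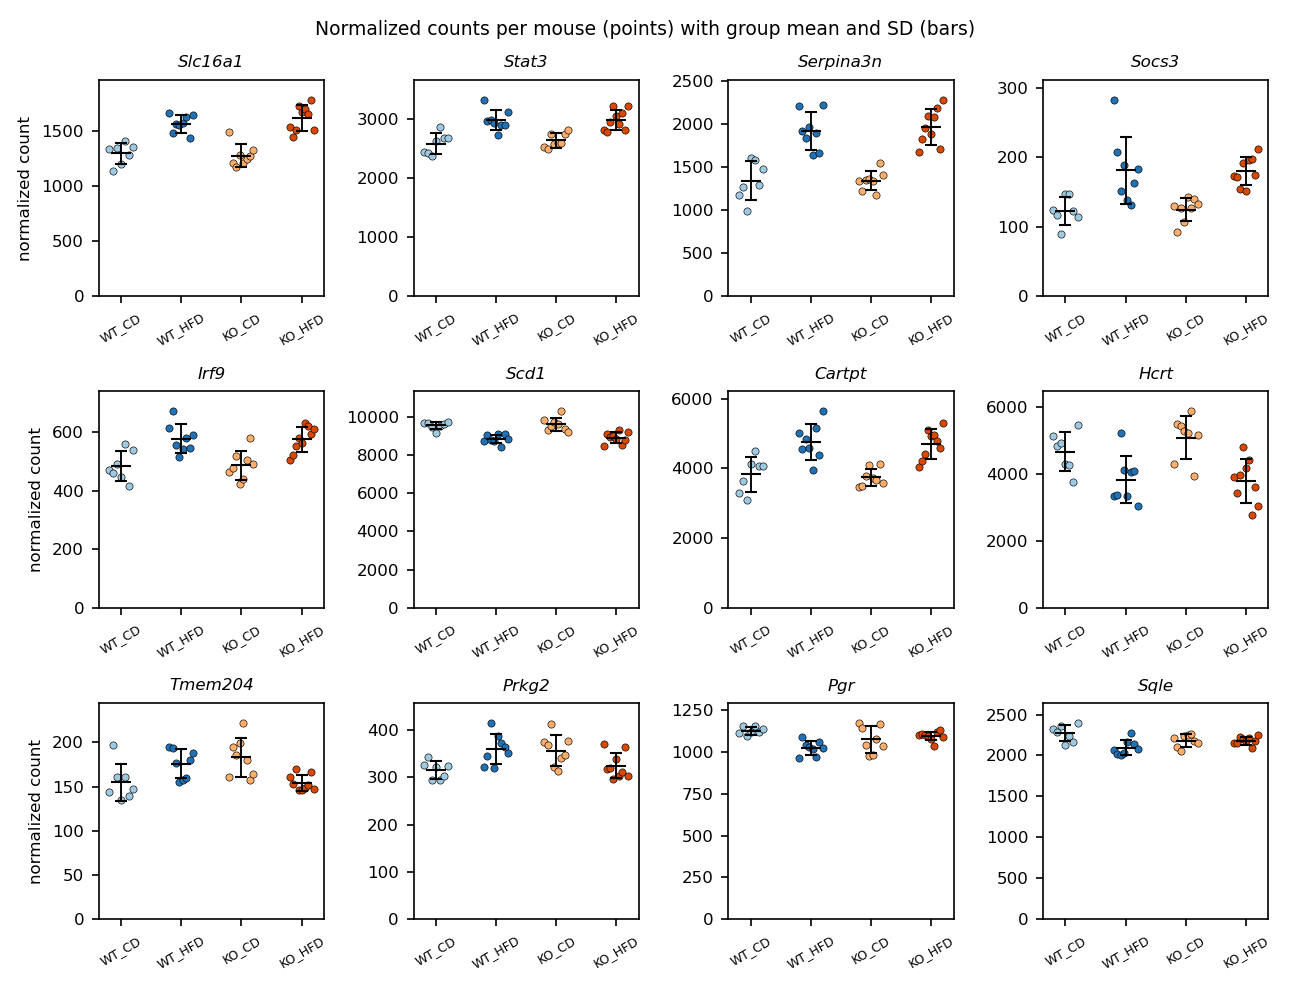
Normalized count of 12 genes in each mouse (points) with group mean and SD (bars), for WT_CD, WT_HFD, KO_CD and KO_HFD, on axes that start at 0. The first 8 genes show a step in the same direction between diets in both genotypes. Tmem204, Prkg2, Pgr and Sqle, from the top of the uncalled interaction ranks of genes with at least 1 CPM on average, show unequal steps with overlapping groups in most cases.

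Other genes called for diet had the same pattern. Phox2a, a homeodomain factor of noradrenergic neurons, was expressed at a mean of 0.372 CPM, below the level required of a named gene, and was included after its values were seen. Its counts were 0, 4.89 and 7.30 in WT_CD and 10.99, 14.8 and 17.9 in WT_HFD. Knockout counts were 1.64, 3.59 and 6.16 in KO_CD and 10.2, 16.4 and 26.3 in KO_HFD. The diet groups did not overlap in either genotype. The response was 2.17 (SE 0.36) in wild type and 2.02 (SE 0.33) in the knockout, and the interaction was -0.14 with a wide interval (-1.13 to 0.84). It lay above 0 in smaller sets of mice, at 0.36 without the 9 meningeal libraries (unadjusted p = 0.535) and at 1.39 among mice of 150 days only (unadjusted p = 0.0296, adjusted p = 0.9997), where the responses were 0.85 and 2.25 and WT_CD held 1 mouse. Kcnj10, the astrocyte potassium channel Kir4.1, had responses of -0.12 and -0.11 and an interaction of 0.011 (-0.06 to 0.08). Prex1, an exchange factor for the GTPase Rac, had responses of -0.08 and -0.16 and an interaction of -0.08 (-0.16 to 0.014). The averaged diet call of Prex1 was lost with age as a covariate (adjusted p = 0.161) and without the 9 meningeal libraries (adjusted p = 0.133). The 4 globin genes Hba-a1, Hba-a2, Hbb-bs and Hbb-bt, which mark red blood cells, had wild-type responses of 0.64 to 0.67 and knockout responses of 0.53 to 0.58, with interactions of -0.12 to -0.07. Without the 9 meningeal libraries the interactions were 0.25 to 0.28, and none of the 4 genes was called for diet in that set or with age as a covariate. The blood genes had a lower level or median at 149 than at 150 days in each group, with overlapping ranges in KO_CD and WT_HFD. Their mean log2 level was 8.78 and 8.79 in the single KO_HFD and WT_HFD mice of 149 days, against medians of 9.20 and 9.44 in those of 150 days, and it was 9.20 in the WT_CD mouse of 150 days against a median of 8.70 in those of 149 days. The WT_HFD mice of 150 days ranged from 8.66 to 9.61. In KO_CD the 5 mice of 149 days ranged from 8.49 to 9.10 and the 3 of 150 days from 8.87 to 9.32. The part of age in the globin responses was not tested. Hba-a1 and Hba-a2 are near-identical copies, as are Hbb-bs and Hbb-bt, and the counting may have split reads within each pair. All 4 mark the same cells, so that they do not make up separate measurements.

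The genes at the top of the interaction ranks had responses of opposite sign in the genotypes, except Sqle, and none of them passed the test. They were taken from genes with at least 1 CPM on average and a symbol other than a clone name. Because they were ranked on the interaction, which favours such pairs, the values below describe extremes among the genes of the 19928 tested that met this rule. The lowest p belonged to Tmem204, which encodes a membrane protein of endothelial junctions (chr17:25057702-25083591, minus strand). Its counts were 135, 147 and 197 in WT_CD and 155, 179 and 194 in WT_HFD. Without the receptor they were 158, 183 and 222 in KO_CD and 146, 152 and 169 in KO_HFD. The interaction was -0.42 (-0.64 to -0.20, unadjusted p = 0.000321, adjusted p = 0.999), from responses of 0.19 and -0.24. Prkg2, a cyclic GMP dependent protein kinase, had counts of 294, 323 and 344 in WT_CD, 320, 357 and 416 in WT_HFD, 313, 357 and 412 in KO_CD, and 298, 317 and 370 in KO_HFD. Its interaction was -0.32 (-0.49 to -0.15), and -0.45 without the 9 meningeal libraries (adjusted p = 0.214). Efna1, a ligand of Eph receptors, had responses of 0.30 and -0.26 and an interaction of -0.56 (-0.88 to -0.25). Eif4ebp1, which restrains translation downstream of mTOR, had responses of 0.61 and -0.19 and an interaction of -0.81 (-1.30 to -0.32), at counts of 14.9 to 50.3 in all groups. Its interaction was -0.24 among mice of 150 days only. The other genes below 0 by this ranking were Kcnk4, Rffl, Pcdhb12, Zfp90, Leng1 and Rasl10a, with interactions of -0.53 to -0.19.

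Above 0, the lowest p among genes that met the same level and symbol rule belonged to Pgr, the progesterone receptor gene. Its counts were 1091, 1118 and 1153 in WT_CD and 961, 1024 and 1090 in WT_HFD, without overlap. The knockout values were 978, 1060 and 1174 in KO_CD and 1037, 1098 and 1130 in KO_HFD. The wild-type response was -0.14 (SE 0.036), the knockout response 0.03 (SE 0.033) and the interaction 0.17 (0.07 to 0.27, unadjusted p = 0.00116). Cep70, which encodes a centrosomal protein, had an interaction of 0.17 (0.07 to 0.27), and Rgl3, an exchange factor for Ral GTPases, of 0.35 (0.13 to 0.56). Pak3, Mysm1, Nyap1, Cep57l1, Fam227a and Caap1 had interactions of 0.09 to 0.46. Sqle, the squalene epoxidase of cholesterol synthesis, had counts of 2131, 2283 and 2400 in WT_CD and 2000, 2072 and 2279 in WT_HFD, against 2057, 2194 and 2265 in KO_CD and 2087, 2175 and 2244 in KO_HFD. Its response was -0.12 in wild type and -0.00090 in the knockout, with an interaction of 0.12 (0.04 to 0.20), and of 0.08 without the 9 meningeal libraries (unadjusted p = 0.102).

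Sqle belongs to a list of 24 genes of cholesterol synthesis and its control. In this list 14 members had an interaction above 0, where 49.7% of all genes did, and 3 had an unadjusted p under 0.05, all above 0. Among them, besides Sqle, was Cyp51, a sterol demethylase (0.11, 0.0052 to 0.21). The interaction of Cyp51 was only 0.012 without the libraries of high meningeal level (unadjusted p = 0.809). The median response of the list was -0.06 in wild type and -0.04 in the knockout, the median interaction was 0.020, and no member passed.

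Over all 37 gene lists, which covered 520 tested genes, 0 genes passed for the interaction and 21 had an unadjusted p under 0.05, which is 4.04% against 3.4% of all genes tested, so that the single members described are not set apart by their number. The median interaction lay within 0.1 of 0 in 32 lists. Those within included gliosis and inflammation (median response 0.20 in wild type and 0.18 in the knockout), fatty acid oxidation and PPAR targets (0.0082 and 0.03), insulin signalling (-0.011 and 0.020) and the 25 genes of Gs and cyclic AMP signalling, the route that GPR101 uses (-0.016 and -0.0084). In that last list 14 members were above 0 and 1 had an unadjusted p under 0.05. It was Crem, a transcription factor that cyclic AMP induces (interaction -0.18, -0.36 to -0.0029).

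**Figure D4:**
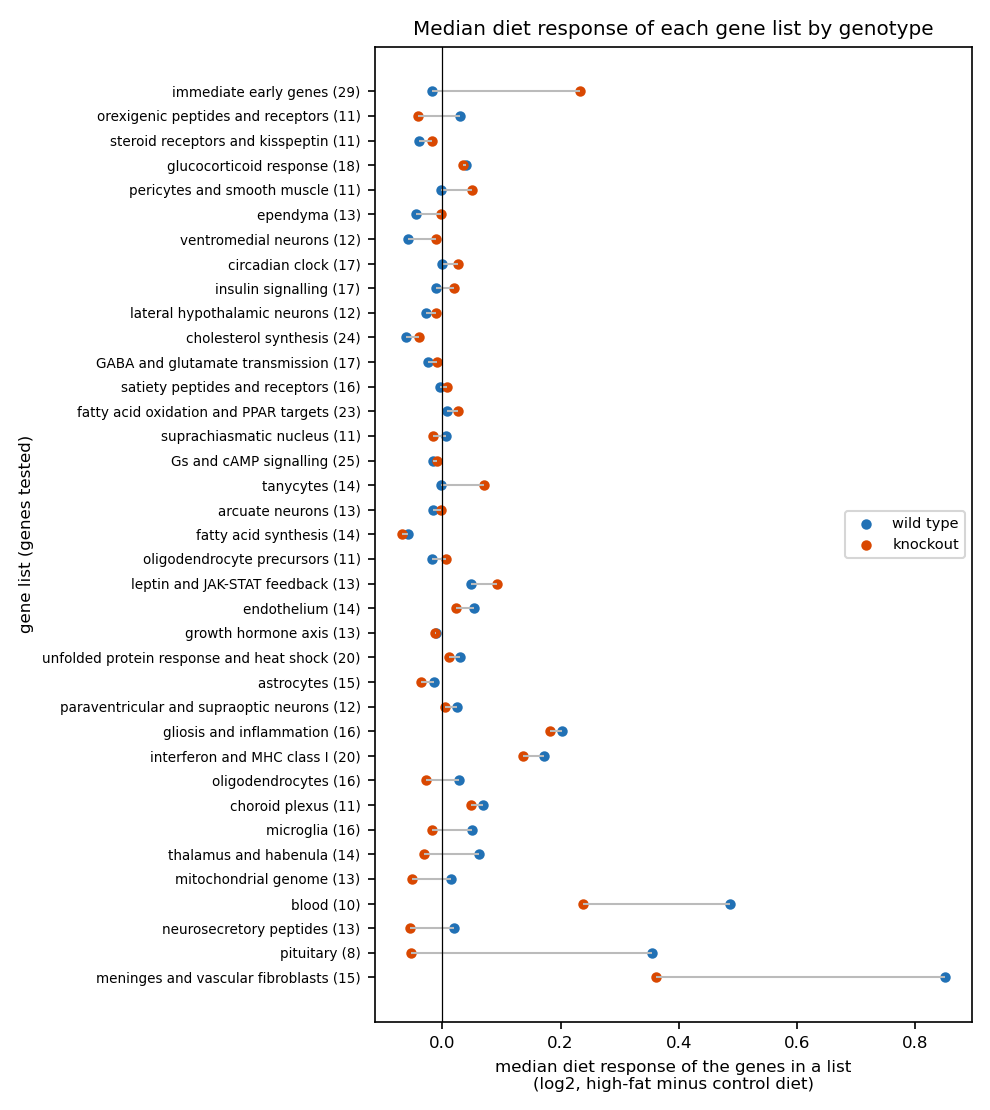
Median diet response (horizontal axis, log2, high-fat minus control diet) of the tested genes of each of 37 lists in wild type (blue) and knockout (orange), ordered by median interaction, with the number of genes tested in brackets. The points lie close together in most lists and apart for immediate early genes, blood, pituitary, and meninges and vascular fibroblasts.

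The list furthest above 0 was that of immediate early genes, which neurons and other cells induce within minutes of stimulation. Of 29 tested members 27 had an interaction above 0, the median was 0.34, and the median response was -0.018 in wild type and 0.23 in the knockout. In the knockout 28 of 29 members were higher on high-fat diet, against 12 of 29 in wild type. No member passed, and 2 had an unadjusted p under 0.05. These genes are induced together, so that their count does not represent 29 separate measurements. Fos, a subunit of the factor AP-1, had counts of 746, 1461 and 2159 in WT_CD and 998, 1548 and 1799 in WT_HFD. In KO_CD they were 310, 742 and 1625 and in KO_HFD 849, 1335 and 1892. The KO_CD mice had the lowest median, and all groups overlapped. The response of Fos was 0.09 (SE 0.31) in wild type and 0.84 (SE 0.29) in the knockout, and the interaction was 0.76 (-0.11 to 1.63). Fosb, its relative, had counts of 208, 375 and 603 in WT_CD, 211, 377 and 545 in WT_HFD, 83.6, 184 and 405 in KO_CD, and 171, 362 and 497 in KO_HFD. Its interaction was 0.93 (0.02 to 1.83). Atf3, a stress-induced factor, had an interaction of 0.94 (0.19 to 1.69), and Dusp1, the phosphatase that silences MAP kinases, of 0.46 (-0.14 to 1.06).

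Age moved with these genes inside KO_CD. The mean log2 level of the list was 7.82 to 8.34 in the 5 KO_CD mice of 149 days and 8.63 to 8.70 in the 3 of 150 days, so that the ages did not overlap. It was 8.24 to 8.99 in the 8 KO_HFD mice of 150 days and 8.43 in the single one of 149 days. In WT_CD the 6 mice of 149 days ranged from 8.28 to 9.42 around the single mouse of 150 days at 8.96. The median interaction of the list was 0.42 with age as a covariate, 0.25 among mice of 150 days only, 0.37 without the 9 meningeal libraries, and 0.25 to 0.45 when each library was left out in turn. Among mice of 150 days only, the knockout response was -0.14 for Fos and -0.13 for Fosb, below 0, and the wild-type response was -0.59 and -0.65. WT_CD then held 1 mouse, so that the interaction at 150 days rests on that animal. Handling and the hour of killing were not known, and their part was not tested.

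**Figure D5:**
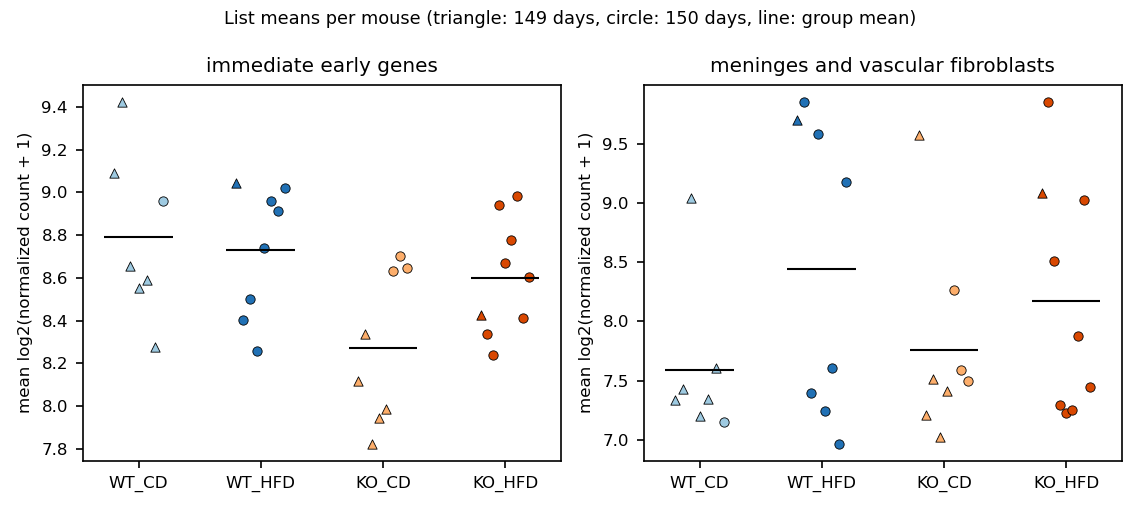
Mean log2(normalized count + 1) of the tested immediate early genes (left) and of the genes of meninges and vascular fibroblasts (right) in each mouse, with triangles for mice of 149 days, circles for mice of 150 days and a line at the group mean. On the left, KO_CD mice of 149 days (7.82 to 8.34) include the lowest and overlap the lower end of the other groups, such as KO_HFD mice of 150 days from 8.24. On the right, 9 libraries from all groups lie above 9.

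Promoters of immediate early genes are shown because the members moved together and because cyclic AMP acts on such genes through the element TGACG, a part of the palindrome TGACGTCA. The sequences are from RefSeq (GRCm38.p6), 5′ to 3′, and end at the base before the start of the gene, with each match, on either strand, in capitals. They cover the 150 bases before Fos (chr12:85473740-85473889, plus strand) and before Fosb (chr7:19310046-19310195, minus strand) and the 200 bases before Dusp1 (chr17:26508473-26508672, minus strand).
Fos: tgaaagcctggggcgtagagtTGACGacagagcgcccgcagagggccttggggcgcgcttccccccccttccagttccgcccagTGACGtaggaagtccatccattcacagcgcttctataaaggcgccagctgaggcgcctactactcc
Fosb: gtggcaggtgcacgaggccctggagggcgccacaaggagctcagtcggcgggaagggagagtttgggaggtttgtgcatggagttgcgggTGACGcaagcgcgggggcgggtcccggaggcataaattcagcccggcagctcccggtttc
Dusp1: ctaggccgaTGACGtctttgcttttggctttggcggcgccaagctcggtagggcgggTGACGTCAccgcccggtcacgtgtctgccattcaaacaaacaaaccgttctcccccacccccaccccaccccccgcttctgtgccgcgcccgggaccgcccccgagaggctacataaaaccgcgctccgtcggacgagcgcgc
The matches begin 129 and 66 bases before the start of Fos and 60 before that of Fosb. In Dusp1 they begin 191, 143 and 140 bases before the start, the last 2 on opposite strands of 1 palindrome. In the 250 bases before the start, on either strand, TGACG was found in 19 of the 25 matched immediate early genes and in 19.79% of all 27025 genes with a promoter. TGACGTCA was found in 3 of the 25 genes (Btg2, Dusp1 and Maff) and in 1.769% of all genes with a promoter, and each TGACGTCA also counts as a TGACG. The matches say nothing of whether a factor bound there in these mice. These shares follow from which genes were listed and do not depend on genotype or diet. A part of cyclic AMP in the interaction was not tested.

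The list furthest below 0 was that of meninges and vascular fibroblasts. All 15 members had an interaction below 0, the median was -0.39, and 0 had an unadjusted p under 0.05. The median response was 0.85 in wild type and 0.36 in the knockout, and all 15 members were higher on high-fat diet in both. The mean log2 level was 7.15, 7.34 and 9.04 (lowest, median, highest) in WT_CD, 6.97, 8.39 and 9.85 in WT_HFD, 7.03, 7.51 and 9.57 in KO_CD, and 7.23, 7.88 and 9.85 in KO_HFD. The groups overlapped over nearly their whole range, and the summed level ran from 242 to 2695 CPM. Without the 9 libraries above 9, the median interaction of the list was 0.16, above 0. That value is partly fixed, because the libraries were left out by the level of this same list, 4 from WT_HFD, 3 from KO_HFD and 1 from each control-diet group. With each single library left out it ranged from -0.66 to -0.14.

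The pituitary list had a median interaction of -0.37 over 8 tested genes, from very low levels. Gh, the growth hormone gene, was at 0 reads in 7 libraries and Prl, the prolactin gene, in 16, and the highest Gh level was 10.9 CPM. Blood genes had a median interaction of -0.11, and neurosecretory peptides of -0.11.

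Several lists had small interactions that lay mostly on 1 side of 0, where 49.7% of all genes were above it. Of the 17 genes of insulin signalling 14 were above 0, with a median of 0.02, and of the 16 genes of oligodendrocytes 14 were below 0, with a median of -0.05, and none of either list had an unadjusted p under 0.05. In the list of microglia 14 of 16 members were below 0, with a median of -0.06, and 2 had an unadjusted p under 0.05, as did 3.4% of all genes. Trem2, the lipid-sensing receptor of microglia, had counts of 154, 172 and 211 in WT_CD, 158, 212 and 232 in WT_HFD, 188, 202 and 234 in KO_CD, and 168, 193 and 226 in KO_HFD, with an interaction of -0.29 (-0.51 to -0.07). C1qc, a complement subunit, had an interaction of -0.13 (-0.25 to -0.00020). The markers P2ry12 and Cx3cr1 had interactions of 0.0016 and -0.0030. Without the 9 meningeal libraries the median of the list was -0.02. Of the 13 genes of the mitochondrial genome 12 were below 0, with a median of -0.08, and 2 had an unadjusted p under 0.05, mt-Nd4 (-0.09, -0.15 to -0.02) and mt-Co2 (-0.15, -0.28 to -0.02), subunits of respiratory complexes I and IV. These transcripts are cut from the same precursors and move together. Their median was -0.0073 after quantile normalization, -0.07 with scaling to CPM and -0.08 with limma-voom on reads.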

How the data were processed

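Total RNA of 32 hypothalami was sequenced with a stranded paired-end protocol, per the labels. According to the submitters' processing notes, reads were handled with Trim Galore (0.6.2), cutadapt (2.10), FastQC and STAR (2.7.6a) on GRCm38, and DESeq2 (1.28.1) was used in R (4.0.2). Which tool counted the reads, with what strand setting and which annotation, is not given in the sources used here. In unit, all deposited values are log2. Each value is the log2 of reads over a size factor of the library, and genes without reads are listed at the log2 of 0.1. Dividing by the value of 1 read returned whole reads for 100% of values above that floor (relative tolerance 1e-06). Of 55401 gene identifiers 55141 had a symbol and coordinates in the GENCODE annotation of GRCm38.

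From these values log2(normalized count + 1) was computed, where the added 1 shrinks the fold changes of genes at low counts. Genes with a normalized count of at least 10 in at least 7 libraries were tested. The design named a test of counts only for files that hold counts, so limma 3.58.1 (R 4.3.3, statmod 1.5.0) was used. It fitted the 4 groups together, with an intensity trend, robust moderation and no covariates. Contrasts were the diet response of each genotype, their mean and their difference. Tests were two-sided, the Benjamini-Hochberg adjustment ran over all genes tested, with a threshold of 0.05. Every library is labelled as a separate mouse, and no pair held identical values. Intervals and limits on a count of 0 (3 reads over a group) cover counting error only where no replicates enter. The fit was tested on simulated data.

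The gene lists, the panel and the genes shown were chosen with earlier results of these data known, and the genes given per group were chosen after their values were seen. Named genes otherwise followed a rule: Gpr101, the 10 genes of lowest interaction p on each side of 0, up to 10 genes by p for each diet contrast (both with a symbol other than a clone name and at least 1 CPM on average), the panel, and up to 2 members on each side per list. Outside the rule were Phox2a, Lrrn4cl, Cyp51, the other members of lists and the other genes of the 67. Alternatives changed the pseudocount, filter, scaling, test, moderation, age, replicate number, library number and the set of libraries. Leaving out the 9 libraries of high meningeal level was chosen after seeing the data. Promoters came from RefSeq tables of GRCm38.p6, matched by symbol or synonym. Some genes that entered the fits and counts are not reported here by name.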

Additional observations from a re-analysis of the deposited data

Results flagged for a closer look

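In 7 of 120 group values examined, 1 library lay apart from the rest of its group by Dixon's criterion, which chance meets in about 1 of 20 groups. In WT_CD, replicate 4 had the lowest Scd1 count, 9134 against 9476 for the next, and the highest mean log2 level of microglial genes, 8.98 against 8.92. WT_CD replicate 2 had the highest Tmem204 count, 197 against 161, and the interaction of Tmem204 was -0.48 without it. WT_CD replicate 3 had the highest mean log2 level of genes of meninges and vascular fibroblasts, 9.04 against 7.61. In WT_HFD, replicate 7 had the highest Acsbg1 count, 4602 against 4315. In KO_CD, replicate 7 had the most reads, 34.2 M against 28.6 M. In KO_HFD, replicate 4 had the highest Kcnj10 count, 11029 against 10226.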

How the results depend on the processing

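The interaction count was 0 in all 46 alternatives, with 572 to 770 genes at an unadjusted p under 0.05 when each library was left out. There were 1507 of 41338 tested genes without a filter and 424 of 13664 with a normalized count of at least 100 in 7 libraries. Pearson's r between the responses was 0.061 without a filter, 0.49 with the strict filter, 0.46 with age as a covariate, 0.061 among mice of 150 days only, 0.066 without the 9 meningeal libraries, and 0.16 to 0.29 when each library was left out. Genes called for diet averaged over genotypes numbered 43 without a filter, 12 with age as a covariate, 0 at 150 days only, 15 without the 9 libraries and 41 to 87 with each library left out (43 without KO_CD replicate 5, 44, 41 and 41 without WT_CD replicates 1, 2 and 6). In wild type the calls were 8 with quality weights, 3 without trend and robust moderation, 1 with age as a covariate, 0 at 150 days only, 3 without the 9 libraries and 1 to 7 with each library left out (3 and 1 without WT_CD replicates 1 and 2). In the knockout they were 4 with scaling to CPM, 3 without trend and robust moderation, 2 at 150 days only and 3 to 10 with each library left out (4, 4 and 3 without KO_CD replicates 3, 4 and 6, 4 and 3 without KO_HFD replicates 7 and 8). The median interaction of the mitochondrial genome was -0.0073 after quantile normalization. Leave-one-out medians were 0.25 to 0.45 for immediate early genes, -0.66 to -0.14 for meninges, -0.09 to -0.04 for microglia and -0.09 to -0.06 for the mitochondrial genome. For single named genes, 8229 of the values under these alternatives moved by no more than the error and 115 by more, 67 of those at 150 days only and 45 without the 9 libraries, and none changed sign beyond its error. The cause of these shifts was not tested.

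Replicate numbers in the labels were not used to pair the mice in the main fit, and correlations of deviations cannot exclude such a pairing. Of 42 pairs with the same number 6 had correlated deviations above 0.1, the median correlation was -0.0046, and 6 of 32 libraries correlated best with their own number. The highest correlation of a pair with the same number was 0.27, and the median over pairs of other numbers was -0.0051. With the replicate block the interaction count was 0, 691 genes had an unadjusted p under 0.05, r was 0.25, and 45 genes were called for averaged diet, 3 for diet in wild type. Depth limits genes with few reads, whose intervals are wider.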

Other observations

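Among list members that the text has not yet described, several receptor and glial genes had an unadjusted interaction p under 0.05 without passing over all genes. Such a p was found for 4.04% of list genes and 3.4% of all genes, and several of the lists these genes come from went both ways, with 7 of 14 tanycyte, 6 of 15 astrocyte, 5 of 14 endothelial and 9 of 16 satiety genes above 0. Mc3r, a melanocortin receptor of the arcuate nucleus, had a response of -0.10 in wild type and 0.27 in the knockout (interaction 0.37, 95% interval 0.10 to 0.65). Cnr1, the cannabinoid receptor, had -0.06 and 0.04 (0.10, 0.015 to 0.19), and Nr3c1, the glucocorticoid receptor, had 0.00050 and 0.09 (0.09, 0.013 to 0.17). Nes, the filament gene nestin of tanycytes, had -0.14 and 0.12 (0.26, 0.03 to 0.49). Below 0 were the astrocyte genes Agt (-0.10, -0.19 to -0.0092) and S100b (-0.11, -0.21 to -0.0094) and the endothelial gene Ly6c1 (-0.18, -0.35 to -0.0032).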
